A study of Homo sapiens with 8 samples.

Results

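The MYC and MAX network is a family of helix-loop-helix zipper transcription factors that compete for partners and for the same DNA motif. Its 10 members were found by gene symbol (MYC, MAX, MXD1, MXD3, MXD4, MXI1, MNT, MGA, MLX and MLXIP), and all 10 were among the 15597 genes of each deposited table. All 10 also reached at least 1 FPKM in at least 2 libraries, as did 9805 genes in all, and were tested. FPKM are reads scaled to gene length and to the library's total, so levels can be compared between genes.

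The RNA came from SUDHL-4 cells, an established diffuse large B-cell lymphoma line of germinal-centre type. There were 4 groups with 2 libraries each. Control cells, labelled wild type, received DMSO or 5 nM elesclomol (ES, a copper ionophore), and cells overexpressing FDX1 (FDX1-OE) received the same pair of treatments, all for 48 h. FDX1 is a mitochondrial ferredoxin through which elesclomol-bound copper is reduced. The labels do not say whether the 2 libraries of a group came from separate cultures, whether the FDX1-OE cells were a clone or a pool, or what vector the control cells carried. If the libraries were not separate cultures, the p-values measure technical spread only.

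Library totals lay between 33435438 and 35883528 reads. FDX1 itself was at 21.32 to 25.58 FPKM in the 4 control libraries and at 69.87 to 84.84 FPKM in the 4 FDX1-OE libraries, as labelled. All 6 B-cell markers and all 6 germinal-centre markers that were looked for averaged above 1 FPKM. The B-cell markers summed to 1340 to 1450 FPKM in DMSO and 1640 to 1710 FPKM in ES, and the germinal-centre markers to 123 to 137 and 136 to 145 FPKM. The plasma-cell markers summed to 496 to 589 FPKM in DMSO and 574 to 817 FPKM in ES, nearly all from JCHAIN, while PRDM1, SDC1 and IRF4 stayed at or below 0.0787 FPKM. Of 6 epithelial and stromal markers, 5 averaged at most 0.1 FPKM, and the sum of the list was 0.287 to 0.466 FPKM in DMSO and 0.695 to 1.78 FPKM in ES, mostly from PECAM1. The 4 myeloid markers listed in the tables summed to 0.124 to 0.227 FPKM in DMSO and 0.275 to 0.644 FPKM in ES. The T and NK cell markers summed to 4.1 to 7.19 FPKM in DMSO and 7.09 to 8.47 FPKM in ES, nearly all from CD3E, while CD3D stayed at or below 0.0345 FPKM. The number of genes listed at 0 was 2601 to 2720 in the DMSO libraries, 2188 and 2303 in the control ES libraries, and 1593 and 1558 in the FDX1-OE ES libraries. The part of these shifts in the results that follow was not tested.

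MAX is the shared partner. MYC pairs with MAX to activate genes of growth, ribosome production and metabolism, whereas MXD1, MXD3, MXD4, MXI1 and MNT pair with MAX (MXD1, MXD4 and MNT in part also with MLX) and bring the SIN3 and histone deacetylase corepressor to the same sites. MGA joins MAX within the polycomb complex PRC1.6, and MLXIP (MondoA) pairs with MLX to sense glucose 6-phosphate and switch on genes such as TXNIP. MYC is a common oncogene of B-cell lymphoma, and its short-lived transcript and protein make its level quick to change.

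The dimers of the network read the E-box CACGTG, a palindrome that is the same on both strands. It was searched for in the RefSeq promoter windows of the build GRCh38.p14, which run from 250 bases before to 50 bases after a gene's start. It stood in 7.43% of all 27305 windows of the table and in 10.8% of the 8079 windows that matched a tested gene. Windows were matched for 9 of the members (all but MYC), and those of MXD4, MNT and MLX held it, with its first base 238, 193 and 50 bases before the start. Among genes commonly given as induced by MYC, 55 of the 68 that were tested had a window, and 25 of these held the motif. Stretches of 120 bases from 4 genes are shown to give the motif in its surroundings, with the E-box in capitals. MLX and MXD4 are the members with an E-box that were called with ES, in FDX1-OE cells but not in control cells. The call of MXD4 depended on the scaling of the libraries. LDHA is an induced gene whose transcript fell. CDK4 is an induced gene with 3 E-boxes in its window, 2 of them in the stretch shown. It was not called in either ES comparison, and was chosen after its values were seen. The stretches lie at chr17:42566980-42567099 (plus strand, MLX), chr4:2262240-2262359 (minus strand, MXD4), chr11:18394321-18394440 (plus strand, LDHA) and chr12:57752441-57752560 (minus strand, CDK4).
MLX: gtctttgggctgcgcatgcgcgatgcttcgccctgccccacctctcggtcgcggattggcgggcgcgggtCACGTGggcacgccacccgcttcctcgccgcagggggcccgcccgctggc
MXD4: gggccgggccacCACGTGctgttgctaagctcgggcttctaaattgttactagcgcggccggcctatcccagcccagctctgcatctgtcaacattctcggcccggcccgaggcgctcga
LDHA: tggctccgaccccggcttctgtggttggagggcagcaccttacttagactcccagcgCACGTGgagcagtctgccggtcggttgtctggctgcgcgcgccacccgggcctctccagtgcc
CDK4: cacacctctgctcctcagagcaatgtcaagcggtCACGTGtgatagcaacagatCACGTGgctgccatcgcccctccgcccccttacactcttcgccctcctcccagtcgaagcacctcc
A match describes the letters in the window and was not tested as a binding site.

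In DMSO, MYC stood far above the rest of the network. Its level in the control DMSO libraries was 172.2 ± 13.5 FPKM (SD, n = 2), and across all 8 libraries it ranked between 283 and 480 among 15597 genes. In the same libraries MXD4 was at 29.15 and 31.27, MLX at 28.34 and 31.54 and MAX at 27.78 and 28.56 FPKM, so that these neighbours overlapped. MLXIP came next at 8.73 and 10.4 FPKM. MXI1 and MNT had overlapping levels at 5.633 and 5.939 against 4.993 and 6.294 FPKM, then came MGA at 4.573 and 4.624, MXD3 at 4.323 and 3.64, and MXD1 at 1.499 and 1.311. The levels of MYC rested on 19133 to 29631 reads per library and those of MXD1 on 164 to 444 reads. Of the relatives outside the test, MYCL averaged 0.7367 ± 0.0665 FPKM (SD, n = 2) in control DMSO, and MLXIPL was listed at 0 in the DMSO libraries of both kinds of cell.

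**Figure D1:**
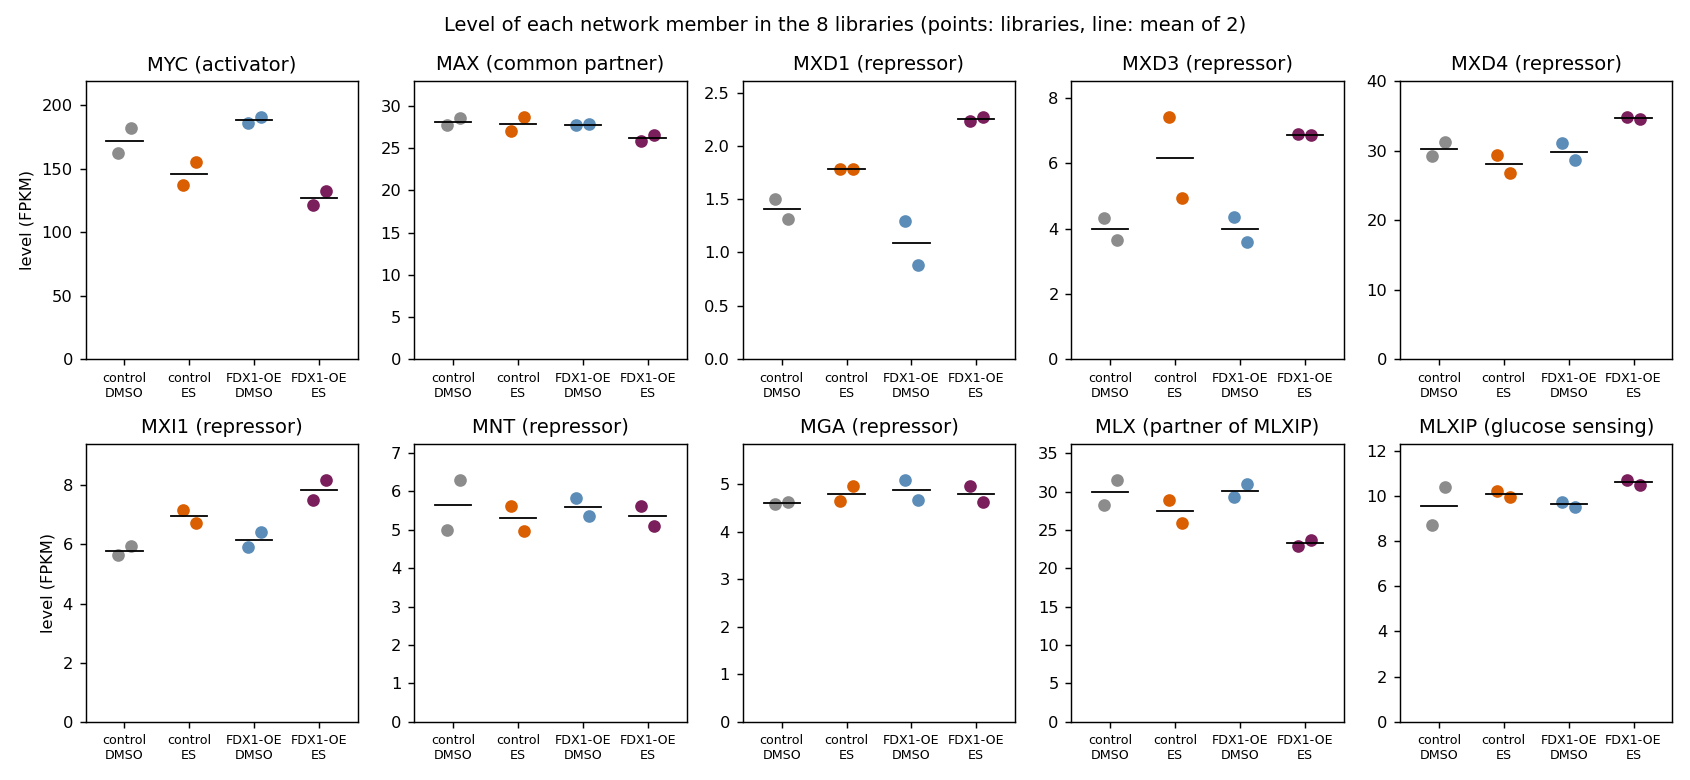
FPKM of each of the 10 members in each of the 8 libraries, 1 panel per gene with its own axis, points for libraries and lines for group means of 2. MYC is lowest in the FDX1-OE ES libraries (121.8 and 132.4 FPKM), where MXD1 is highest (2.233 and 2.269 FPKM), and MAX and MGA differ little between groups.

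MYC, the activator, fell with ES in both kinds of cell. The control libraries had 162.6 and 181.8 FPKM in DMSO and 137 and 155.2 FPKM in ES. The FDX1-OE libraries had 186.2 and 190.6 FPKM in DMSO and 121.8 and 132.4 FPKM in ES. In both kinds of cell the ES libraries lay below the DMSO libraries without overlap, and the lowest values of all were those of FDX1-OE cells in ES. Differences are given here as log2 changes of FPKM + 1, tested with limma and Benjamini-Hochberg adjustment, and a gene is called at an adjusted p below 0.05. The change of MYC was −0.24 (SE 0.07, adjusted p = 0.0265) in control cells and −0.57 (SE 0.07, adjusted p = 9.98e-05) in FDX1-OE cells. The call in control cells was lost on leaving out control DMSO replicate 2 (−0.16, adjusted p = 0.19), on leaving out control ES replicate 1 (−0.15, adjusted p = 0.189) and when genes of low level were kept (adjusted p = 0.107), and its adjusted p over all 10 alternatives ranged from 0.00507 to 0.19. In FDX1-OE cells it was called under all 10 alternatives, with changes between −0.71 and −0.50. In bulk RNA, fewer cells with the transcript and less transcript per cell cannot be told apart.

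The question of whether FDX1 overexpression changed the MYC response was put to the interaction, in which the ES response of control cells is subtracted from that of FDX1-OE cells. For MYC it was −0.33 (SE 0.10, 95% interval −0.56 to −0.10) and did not pass in limma (adjusted p = 0.0946). Across 13 alternatives its adjusted p ranged from 0.0321 to 0.289 and it passed in 3 of them, among them the one without control ES replicate 1 (−0.42, adjusted p = 0.0412). With ES in both kinds of cell, MYC was lower in FDX1-OE than in control libraries without overlap (−0.20, SE 0.07, adjusted p = 0.0785), a difference called in 4 of 10 alternatives (adjusted p 0.021 to 0.442). In DMSO it was 0.13 (SE 0.07, adjusted p = 0.779) in the other direction, and was called in none of 10 alternatives.

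MAX, the common partner, was the steadiest member together with MGA, with an SD of 0.05 for log2(FPKM + 1) over the 8 libraries against 0.243 for MYC. It was at 27.78 and 28.56 FPKM in control DMSO, 27.01 and 28.68 in control ES, 27.78 and 27.87 in FDX1-OE DMSO and 25.81 and 26.6 in FDX1-OE ES. The groups of control cells overlapped, and the 2 FDX1-OE ES libraries were the lowest of the 8. Its change with ES was −0.02 (SE 0.06, adjusted p = 0.832) in control cells and −0.08 (SE 0.06, adjusted p = 0.222) in FDX1-OE cells. After rescaling the libraries by median ratios, which moved the median change of all genes in FDX1-OE cells from 0.094 to −0.034, the second value was −0.22 and passed (adjusted p = 0.00636), the only one of 10 alternatives in which it did (the highest adjusted p was 0.488).

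Of the MXD repressors, MXD1, a factor of differentiating cells, rose with ES in FDX1-OE cells. Its levels were 1.499 and 1.311 FPKM in control DMSO, 1.785 and 1.784 in control ES, 1.294 and 0.8839 in FDX1-OE DMSO and 2.233 and 2.269 in FDX1-OE ES. The ES libraries lay above the DMSO libraries in both kinds of cell, and those of FDX1-OE cells were the highest. The change in FDX1-OE cells (0.65, SE 0.10, adjusted p = 0.000424) was called under all 10 alternatives, whereas in control cells 0.21 (SE 0.10, adjusted p = 0.129) did not pass. With a pseudocount of 0.1 in place of 1 the change in FDX1-OE cells was 1.00, and with voom on reads it was 1.06, since adding 1 FPKM compresses the change of a gene at this level. The interaction was 0.43 (SE 0.15, 95% interval 0.11 to 0.76, adjusted p = 0.118) and passed in none of 13 alternatives.

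MXD3, a repressor known from dividing cells, rose in both kinds of cell. It was at 4.323 and 3.64 FPKM in control DMSO, 7.417 and 4.947 in control ES, 4.355 and 3.603 in FDX1-OE DMSO and 6.897 and 6.862 in FDX1-OE ES. All 4 ES libraries were above all 4 DMSO libraries, but the 2 control ES libraries lay far apart. MXD3 had the largest SD of the network over the 8 libraries (0.355). The change was 0.51 (SE 0.14, adjusted p = 0.0171) in control cells and 0.67 (SE 0.14, adjusted p = 0.00247) in FDX1-OE cells. In control cells the call was lost without control ES replicate 1 (0.26, adjusted p = 0.129), without control DMSO replicate 2 (adjusted p = 0.115) and with no filter on low genes (adjusted p = 0.107), while its adjusted p reached 0.00182 at the lowest over 10 alternatives. The interaction of 0.16 (95% interval −0.29 to 0.60, adjusted p = 0.705) left room for a difference of either sign.

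MXI1, which antagonises MYC and lies among the hypoxia-responsive genes, rose by less. Its levels were 5.633 and 5.939 FPKM in control DMSO, 7.159 and 6.741 in control ES, 5.925 and 6.405 in FDX1-OE DMSO and 7.504 and 8.182 in FDX1-OE ES. The ES libraries were again above the DMSO libraries in both kinds of cell. The change was 0.23 (SE 0.07, adjusted p = 0.0325) in control cells and 0.30 (SE 0.07, adjusted p = 0.00539) in FDX1-OE cells. The first of these was lost when any 1 of the 4 libraries compared was left out and under median-ratio scaling and no filter (highest adjusted p = 0.153, lowest 0.0306 over 10 alternatives), and the second only under median-ratio scaling (0.18, adjusted p = 0.0587, lowest 0.00427).

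MXD4, the most abundant of the repressors, held 57.2% to 64.5% of the summed FPKM of MXD1, MXD3, MXD4, MXI1 and MNT in each library. Its levels were 29.15 and 31.27 FPKM in control DMSO, 29.37 and 26.78 in control ES, 31.02 and 28.66 in FDX1-OE DMSO and 34.79 and 34.55 in FDX1-OE ES. The 2 FDX1-OE ES libraries were the highest of the 8, and the control groups overlapped. It rose with ES in FDX1-OE cells (0.21, SE 0.07, adjusted p = 0.0191) but not by the test in control cells (−0.10, SE 0.07, adjusted p = 0.24), and the interaction was 0.31 (SE 0.09, 95% interval 0.11 to 0.52, adjusted p = 0.0815, range 0.0428 to 0.254 over 13 alternatives). The rise in FDX1-OE cells was lost under median-ratio scaling (0.07, adjusted p = 0.386), which in control cells gave a called fall (−0.19, adjusted p = 0.0429). Leaving out FDX1-OE DMSO replicate 2 (adjusted p = 0.144) or either ES-treated library of these cells (adjusted p = 0.0701 and 0.0596) also ended the call, and its lowest adjusted p over 10 alternatives was 0.00783. Between the ES-treated groups MXD4 was the single member called, higher in FDX1-OE cells (0.30, SE 0.07, adjusted p = 0.0109), against 21.4% of all genes tested. That call held in 8 of 10 alternatives and ended on leaving out control ES replicate 2 (adjusted p = 0.0954) and on leaving out replicate 1 of the ES-treated FDX1-OE cells (adjusted p = 0.0624; lowest over the 10, 0.00212).

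MNT, the broadly present repressor that balances MYC in growing cells, and MGA were called in no comparison. MNT was at 4.993 and 6.294 FPKM in control DMSO, 5.627 and 4.964 in control ES, 5.821 and 5.367 in FDX1-OE DMSO and 5.616 and 5.106 in FDX1-OE ES, with overlap in both ES comparisons. Its change was −0.07 (95% interval −0.30 to 0.15) in control cells and −0.05 (95% interval −0.28 to 0.17) in FDX1-OE cells. MGA was between 4.573 and 5.087 FPKM in all 8 libraries. Its change was 0.05 (adjusted p = 0.628) in control cells and −0.02 (adjusted p = 0.835) in FDX1-OE cells.

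MLX and MLXIP form the glucose-sensing arm. MLX was at 28.34 and 31.54 FPKM in control DMSO, 28.99 and 25.87 in control ES, 29.28 and 31.01 in FDX1-OE DMSO and 22.99 and 23.76 in FDX1-OE ES. The FDX1-OE ES libraries were the lowest of the 8, and the control groups overlapped. MLX fell with ES in FDX1-OE cells (−0.35, SE 0.07, adjusted p = 0.00193), under all 10 alternatives, while in control cells −0.12 (SE 0.07, adjusted p = 0.205) passed under median-ratio scaling alone (−0.21, adjusted p = 0.0383, highest 0.721 over 10 alternatives). The interaction for MLX was −0.23 (95% interval −0.46 to −0.005, adjusted p = 0.218). With ES, MLX was lower in FDX1-OE than in control cells by a difference that missed the threshold (−0.22, SE 0.07, adjusted p = 0.0531, range 0.0203 to 0.254 over 10 alternatives).

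MLXIP was at 8.73 and 10.4 FPKM in control DMSO, 10.23 and 9.955 in control ES, 9.731 and 9.5 in FDX1-OE DMSO and 10.7 and 10.5 in FDX1-OE ES. The 2 highest values were those of FDX1-OE cells in ES, and the groups of control cells overlapped. Its change was 0.08 (SE 0.08, adjusted p = 0.47) in control cells and 0.13 (SE 0.08, adjusted p = 0.185) in FDX1-OE cells. Of the genes that MLXIP and MLX drive, TXNIP, a brake on glucose uptake, went from 18.06 and 16.88 to 23.84 and 25.55 FPKM in FDX1-OE cells (0.48, adjusted p = 0.00253), and ARRDC4, its relative, from 2.871 ± 0.082 to 4.155 ± 0.461 FPKM (SD, n = 2; 0.41, adjusted p = 0.00364). KLF10 was at 10.56 ± 0.104 and 10.57 ± 0.155 FPKM there (SD, n = 2). So 2 of the 3 were called higher in FDX1-OE cells, where 37% of all genes were (25.5% in control cells). A list of 3 genes is too short to be set apart from these shares. In control cells none of the 3 was called, with TXNIP just outside (0.28, adjusted p = 0.0506, range 0.00977 to 0.382 over 10 alternatives).

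**Figure D2:**
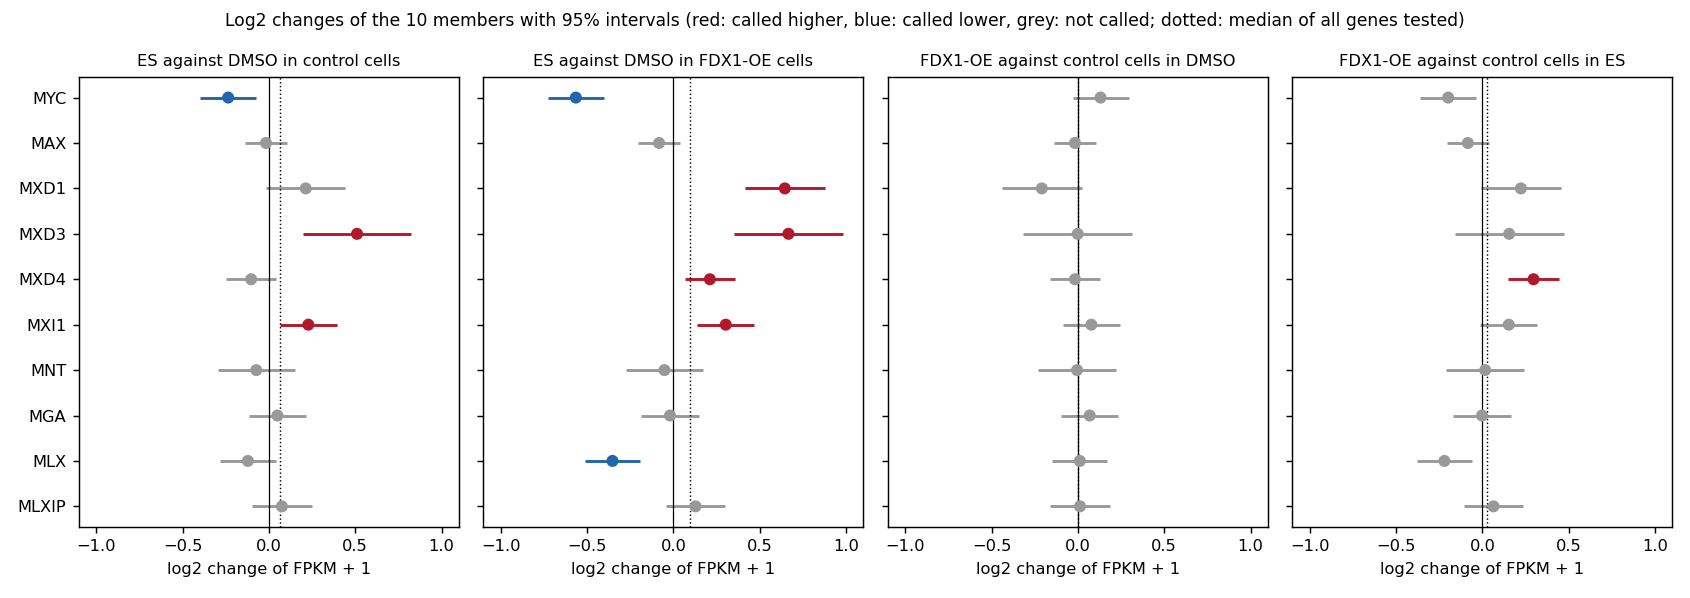
Log2 change of FPKM + 1 for the 10 members in 4 comparisons, points for estimates, bars for 95% intervals and a dotted line for the median of all genes tested, with red for called higher, blue for called lower and grey for not called. ES calls 3 members in control cells and 6 in FDX1-OE cells, FDX1 overexpression calls none in DMSO, and MXD4 is called in ES.

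Counted together, ES called 3 of the 10 members in control cells (2 higher, 1 lower), where it called 38.4% of all 9805 genes (25.5% higher, 12.9% lower). In FDX1-OE cells it called 6 of 10 (4 higher, 2 lower), where it called 56.2% of all genes (37% higher, 19.2% lower). Both counts lie near the share of all genes and are not a result about the members as a group. Their balance of directions depended on the scaling. With median-ratio scaling, MXD3 was called higher and MYC, MLX and MXD4 lower in control cells. In FDX1-OE cells it called MXD1 and MXD3 higher and MYC, MLX and MAX lower. Members whose ES libraries all lay above the DMSO libraries numbered 4 in control cells and 5 in FDX1-OE cells (45.1% and 50.6% of all genes), and those that all lay below numbered 1 and 3 (26.1% and 29%). Between kinds of cell, FDX1-OE libraries lay above for 2 members and below for 1 in DMSO (18.2% and 18.1% of all genes), and above for 4 and below for 3 in ES (35.6% and 25.4%). The median change of the members was 0.02 in control cells and 0.05 in FDX1-OE cells, beside 0.06 and 0.09 for all genes. FDX1 overexpression in DMSO called 0 of 10 members against 0.51% of all genes, with 0 at an unadjusted p under 0.05 in limma and 0 called with voom on the reads recovered from the FPKM. The interaction called 0 of 10 members against 4.3% of all genes, although 4 of them (MYC, MXD1, MXD4 and MLX) had an unadjusted p under 0.05, and with voom 2 members passed (MYC, adjusted p = 0.0367, and MXD4, adjusted p = 0.0428).

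Ratios within a library set the partners side by side, without a test of their own. MYC over MAX was 5.85 and 6.36 in control DMSO, 5.07 and 5.41 in control ES, 6.7 and 6.84 in FDX1-OE DMSO and 4.72 and 4.98 in FDX1-OE ES. MYC over the sum of the 5 repressors was 3.57 and 3.75, 2.67 and 3.43, 3.85 and 4.24, and 2.13 and 2.32 in the same order of groups. Both ratios were lower in ES than in DMSO without overlap, and lowest in FDX1-OE cells with ES. The sum of the 5 repressors itself was 44.92 to 51.36 FPKM in the other 6 libraries and 57.04 and 56.97 FPKM in the FDX1-OE ES libraries. MXD4 held 61% and 60.6% of the sum in the FDX1-OE ES libraries. Its rise in these cells depended on the scaling (0.07 under median-ratio scaling, adjusted p = 0.386 in limma). With that scaling MXD1 and MXD3 stayed called higher (0.55 and 0.54), and MXI1 did not (0.18). The sum was not computed under that scaling. MLXIP over MLX was 0.465 and 0.442 in the FDX1-OE ES libraries and 0.306 to 0.385 in the other 6. A ratio of transcripts says nothing of protein, and these proteins turn over at different rates.

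**Figure D3:**
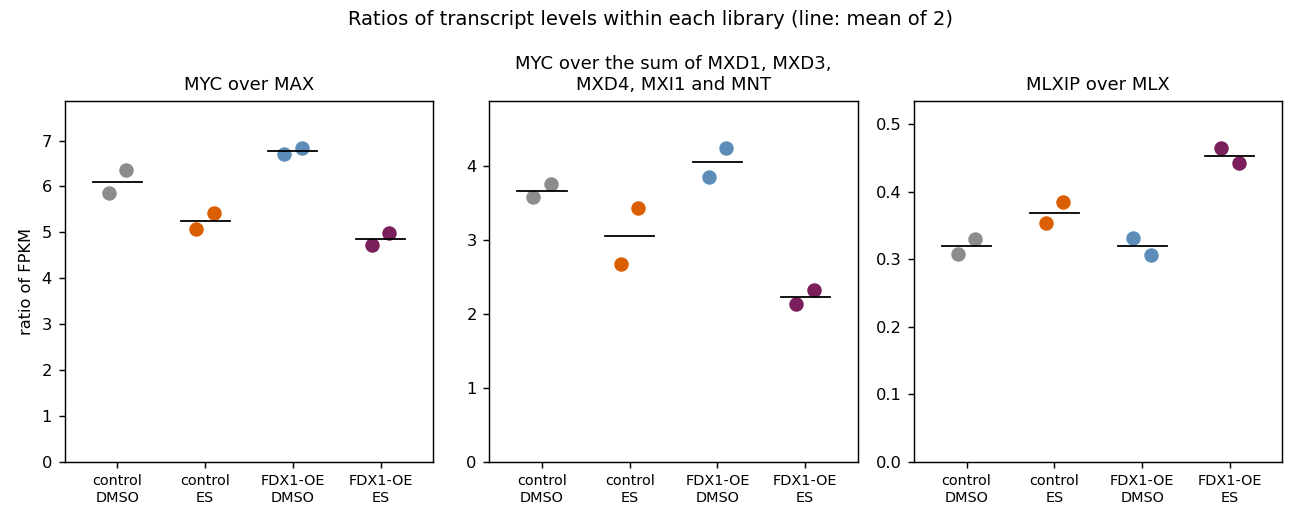
Ratios of FPKM within each library for MYC over MAX, MYC over the sum of MXD1, MXD3, MXD4, MXI1 and MNT, and MLXIP over MLX, points for libraries, lines for the mean of 2, axes from 0. The FDX1-OE ES libraries have the lowest MYC ratios (4.72 and 4.98; 2.13 and 2.32) and the highest MLXIP over MLX (0.465 and 0.442).

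The 5 genes whose pattern over the 8 libraries came closest to that of MYC were SAMD10, ADNP2, MEST, ENTR1 and RASGRP1. Likeness was the root mean squared distance between log2(FPKM + 1) values centred on each gene's mean, and it was 0.0479 to 0.0619 for these genes against a spread of 0.228 for MYC itself. MEST, for example, was at 43.28 and 42.6 FPKM in control DMSO, 33.65 and 37.35 in control ES, 43.94 and 46.26 in FDX1-OE DMSO and 29.29 and 33.89 in FDX1-OE ES. For MXD3, the member with the largest SD, the closest were COQ7, BCL3, DNAJC30, GADD45B and SFI1 (0.0781 to 0.0934, against a spread of 0.333). All 5 of the latter were higher in control ES replicate 1 than in replicate 2 (BCL3 at 7.164 and 5.122 FPKM), which choosing by likeness to MXD3 favours. These are descriptions over 8 libraries that share their treatment groups.

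Genes commonly given as induced by MYC were lower with ES, as MYC was. Of the 69 listed, 68 were tested: in control cells 42 fell and 3 rose (median −0.24), and in FDX1-OE cells 56 fell and 2 rose (median −0.48). The shares that fell were 61.8% and 82.4%, beside 12.9% and 19.2% of all genes tested. The fall count lay between 34 and 50 in control cells and between 50 and 61 in FDX1-OE cells over 10 alternatives each. The 25 genes with an E-box in their window had medians of −0.27 and −0.51 in control and FDX1-OE cells (18 and 22 fell), and the 30 with a window but no E-box had −0.22 and −0.40 (17 and 25 fell).

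Among the induced genes with the largest falls, NOP16, a nucleolar assembly factor for ribosomes, was at 125.9 and 126.2 FPKM in control DMSO, 78.73 and 84.14 in control ES, 132.7 and 125 in FDX1-OE DMSO and 59.91 and 67.57 in FDX1-OE ES. It fell in both kinds of cell without overlap, by −0.63 (adjusted p = 8.14e-05) and −1.01 (adjusted p = 1.29e-06). RRS1, a factor of large ribosomal subunit assembly, changed by −0.64 and −0.88, and PA2G4, a growth-associated nucleolar protein, by −0.33 and −0.87. LDHA, the lactate dehydrogenase subunit whose promoter is printed above, went from 641.8 and 621.8 to 495.5 and 551.8 FPKM in control cells and from 611.2 and 653.5 to 360 and 385.9 FPKM in FDX1-OE cells. Its changes were −0.27 (adjusted p = 0.00652) and −0.76 (adjusted p = 5.13e-06). HK2, the hexokinase that starts glycolysis, changed by −0.49 and −0.65, and HSPE1, the mitochondrial co-chaperonin, by −0.85 and −0.53.

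The induced genes that rose were TFRC, ODC1 and UNG in control cells and TFRC and UNG in FDX1-OE cells. TFRC, the transferrin receptor, is also controlled by iron through its transcript's stability. It went from 36.54 and 35.55 to 59.09 and 55.74 FPKM in control cells (0.66, adjusted p = 2.68e-05) and from 37.92 and 39.8 to 65.94 and 62.06 FPKM in FDX1-OE cells (0.71, adjusted p = 4.89e-06). UNG, the uracil glycosylase of base excision repair, changed by 0.48 in FDX1-OE cells and by 0.16 in control cells, where the call was lost in 6 of 10 alternatives (adjusted p 0.0412 to 0.343). ODC1, the first enzyme of polyamine synthesis, changed by 0.22 in control cells (adjusted p = 0.00953, range 0.00297 to 0.0813 over 10 alternatives). CDK4, with 3 E-boxes in its window, stayed between 132.8 and 152.9 FPKM.

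Of the 12 genes commonly given as repressed by MYC, 11 were in the tables and 6 were tested. FTH1, the ferritin heavy chain that stores iron, was at 364.3 and 362.4 FPKM in control DMSO, 575.8 and 514.9 in control ES, 367 and 369.5 in FDX1-OE DMSO and 781.1 and 820.7 in FDX1-OE ES. It rose in both kinds of cell, by 0.58 and 1.12. CDKN1A, the p21 cell-cycle inhibitor, was at 0.2873 to 0.3868 FPKM in the 4 DMSO libraries, 0.813 and 1.107 in control ES and 2.53 and 2.599 in FDX1-OE ES, changes of 0.55 and 1.39. It passed the filter on low genes only through ES libraries, so its difference is a description. CDKN1B, the p27 inhibitor, changed by 0.39 in both, a call lost in control cells in 2 of 10 alternatives (adjusted p 0.00496 to 0.0561). CEBPA and HBP1 rose in FDX1-OE cells (0.59 and 0.51) and did not pass in control cells (0.25 and 0.22). GADD45A was called in neither. Apart from CDKN1A, those called higher were FTH1 and CDKN1B in control cells, and these with CEBPA and HBP1 in FDX1-OE cells. None of the 6 was called lower. Of all genes tested, 25.5% and 37% were called higher and 12.9% and 19.2% lower. A list this short cannot be set apart from these shares.

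**Figure D4:**
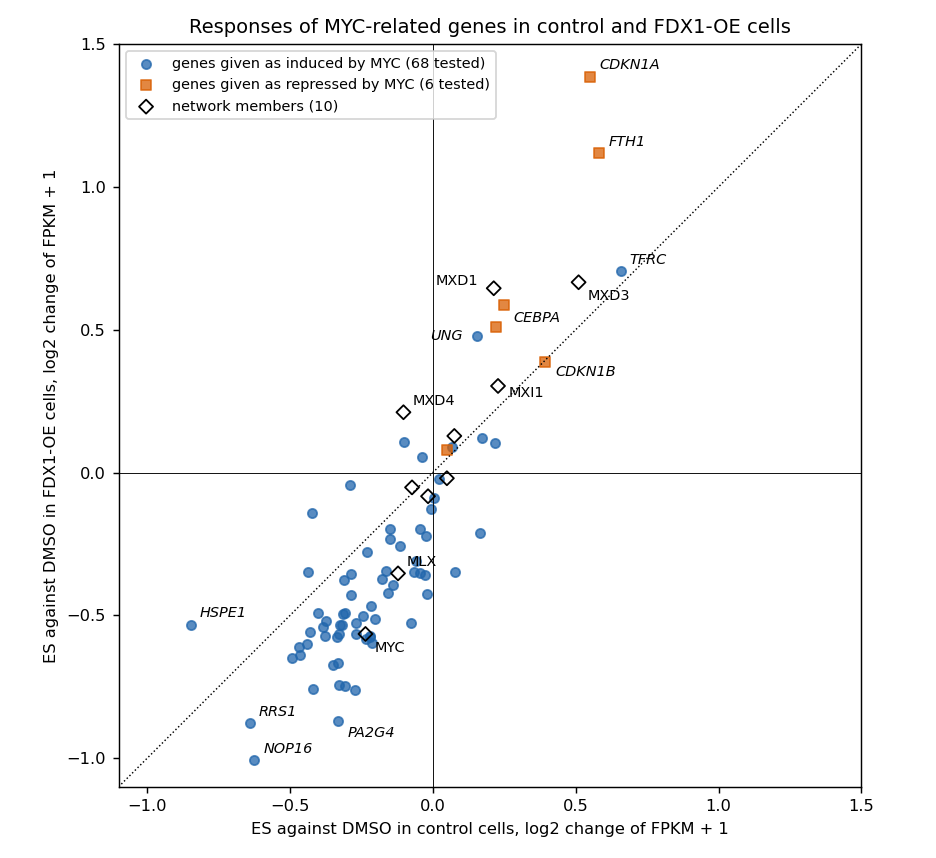
Log2 change of FPKM + 1 with ES in control cells (x) against that in FDX1-OE cells (y) for tested genes given as induced by MYC (68, circles), as repressed by MYC (6, squares) and for the 10 members (diamonds), with a dotted line of equality. Most circles lie below 0 on both axes, from NOP16 (−0.63, −1.01) upward, with TFRC (0.66, 0.71) as the highest of them, and FTH1 and CDKN1A lie above the line.

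FDX1 overexpression in DMSO called 0 induced and 0 repressed genes in limma (1 of each at an unadjusted p under 0.05, and 0 called with voom). With ES in both, 34 induced genes were lower and 3 higher in FDX1-OE than in control cells (median −0.21; 13.6% of all genes were called higher and 7.78% lower), but 19 were lower without control ES replicate 2. The difference in ES response was called in 13 induced genes in the downward direction and 1 in the upward, beside 1.05% and 3.25% of all genes. That count depended on each library: it was 1 without control ES replicate 2, at most 7 without any other library except control ES replicate 1 (17), 2 with no filter on low genes and 23 under median-ratio scaling. These comparisons share libraries with those above and are not independent of them.

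Partners that MYC needs at its target genes showed calls in both directions. Of 17 cofactors, 2 rose and 2 fell in control cells, and 2 rose and 5 fell in FDX1-OE cells (median −0.03 and −0.08). The shares were 11.8% higher and 11.8% lower in control cells, beside 25.5% and 12.9% of all genes, and 11.8% higher and 29.4% lower in FDX1-OE cells, beside 37% and 19.2%. Under median-ratio scaling 13 of them fell in FDX1-OE cells and 5 in control cells. RUVBL1 and RUVBL2, paired ATPases of the chromatin complexes MYC recruits, changed by −0.24 and −0.27 in control cells and by −0.49 and −0.48 in FDX1-OE cells. KAT5, the acetyltransferase of one of these complexes, rose by 0.45 and 0.35. ZBTB17 (MIZ-1), through which MYC represses genes, was called higher in both (0.31, adjusted p = 0.0449, and 0.42, adjusted p = 0.00811), calls lost in 4 and 2 of 10 alternatives (highest adjusted p 0.322 and 0.0707, lowest 0.0163 and 0.0013).

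Regulators of MYC protein stability showed 5 rises and 1 fall among 17 in control cells, and 8 rises and 3 falls in FDX1-OE cells, which became 4 rises and 6 falls under median-ratio scaling. The shares that rose, 29.4% and 47.1%, and fell, 5.88% and 17.6%, lie near those of all genes (25.5% and 37% higher, 12.9% and 19.2% lower). SENP1, a SUMO protease, went from 16.75 and 17.03 to 22.51 and 24.32 FPKM in control cells and from 17.88 and 16.82 to 25.02 and 24.56 FPKM in FDX1-OE cells (0.45 and 0.49). USP28, the deubiquitinase that counters FBXW7 on MYC, rose by 0.28 and 0.37. AURKA, the mitotic kinase, changed by −0.37 and −0.44. Of the 7 tested regulators of MYC transcription, 1 rose and 2 fell in control cells and 1 rose and 5 fell in FDX1-OE cells (median −0.07 and −0.34). The shares that fell were 28.6% and 71.4%, beside 12.9% and 19.2% of all genes. Those that rose were 14.3% in both, beside 25.5% and 37%. The list is short and pools activators of MYC with repressors, so these shares give no direction for MYC.

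FUBP1, which binds a single-stranded element upstream of MYC and activates it, was at 22.76 and 22.66 FPKM in control DMSO, 19.06 and 21.77 in control ES, 22.78 and 23.4 in FDX1-OE DMSO and 15.5 and 15.7 in FDX1-OE ES. It fell in FDX1-OE cells (−0.54, adjusted p = 7.96e-05), while −0.15 (adjusted p = 0.0998) in control cells did not pass. PUF60, the repressor that binds FUBP1, changed by −0.26 and −0.44. HEXIM1, the inhibitor of the elongation kinase P-TEFb, rose from 6.401 and 6.804 to 8.619 and 8.756 FPKM in control cells and from 6.861 and 6.353 to 14.13 and 13.19 FPKM in FDX1-OE cells (0.35 and 0.95). BCL6, a germinal-centre repressor, changed by −0.37 in FDX1-OE cells, and −0.07 in control cells did not pass.

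The corepressors of the MXD proteins and of MGA showed calls in both directions. Among 12 SIN3 and histone deacetylase genes, 2 rose and 1 fell in control cells (16.7% and 8.33%), and 4 rose and 2 fell in FDX1-OE cells (33.3% and 16.7%). One of the rises was that of ARID4B, a SIN3 subunit, which passed the filter on low genes only through the FDX1-OE ES libraries (1.267 and 1.639 FPKM, against 0.5244 to 0.8562 in the other 6), so its difference is a description. HDAC2, a histone deacetylase, changed by −0.35 in FDX1-OE cells. Among 14 PRC1.6 genes, which act with MGA, 2 rose and 1 fell in control cells, and 3 rose and 4 fell in FDX1-OE cells (14.3% and 7.14%, then 21.4% and 28.6%). The shares over all genes tested were 25.5% higher and 12.9% lower in control cells and 37% and 19.2% in FDX1-OE cells, so neither list is set apart by its number of calls. In FDX1-OE cells the highest change among the PRC1.6 genes was that of RYBP, a polycomb subunit (0.49). Median-ratio scaling turned the balance of both lists, with 2 rises and 5 falls for SIN3 and histone deacetylase genes and 1 rise and 6 falls for PRC1.6 genes in FDX1-OE cells. Of 11 germline genes silenced by PRC1.6, 9 were in the tables and 3 were tested (SYCE2, ZCWPW1 and STAG3). None of these 3 reached 1 FPKM in 2 DMSO libraries. They passed the filter only through ES libraries, so their differences are a description. The germline genes not tested stayed at or below 0.2354 FPKM in every library. SYCE2, a synaptonemal complex protein, was at 0.6066 and 0.5571 FPKM in control DMSO, 3.047 and 2.993 in control ES, 1.089 and 0.8402 in FDX1-OE DMSO and 5.111 and 4.672 in FDX1-OE ES. ZCWPW1 went from 0.6413 ± 0.00852 to 1.216 ± 0.0838 FPKM in control cells and from 0.5846 ± 0.0407 to 1.606 ± 0.194 FPKM in FDX1-OE cells (SD, n = 2), and STAG3 from 0.5557 ± 0.0171 to 1.044 ± 0.261 FPKM and from 0.5662 ± 0.112 to 1.338 ± 0.402 FPKM (SD, n = 2).

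**Figure D5:**
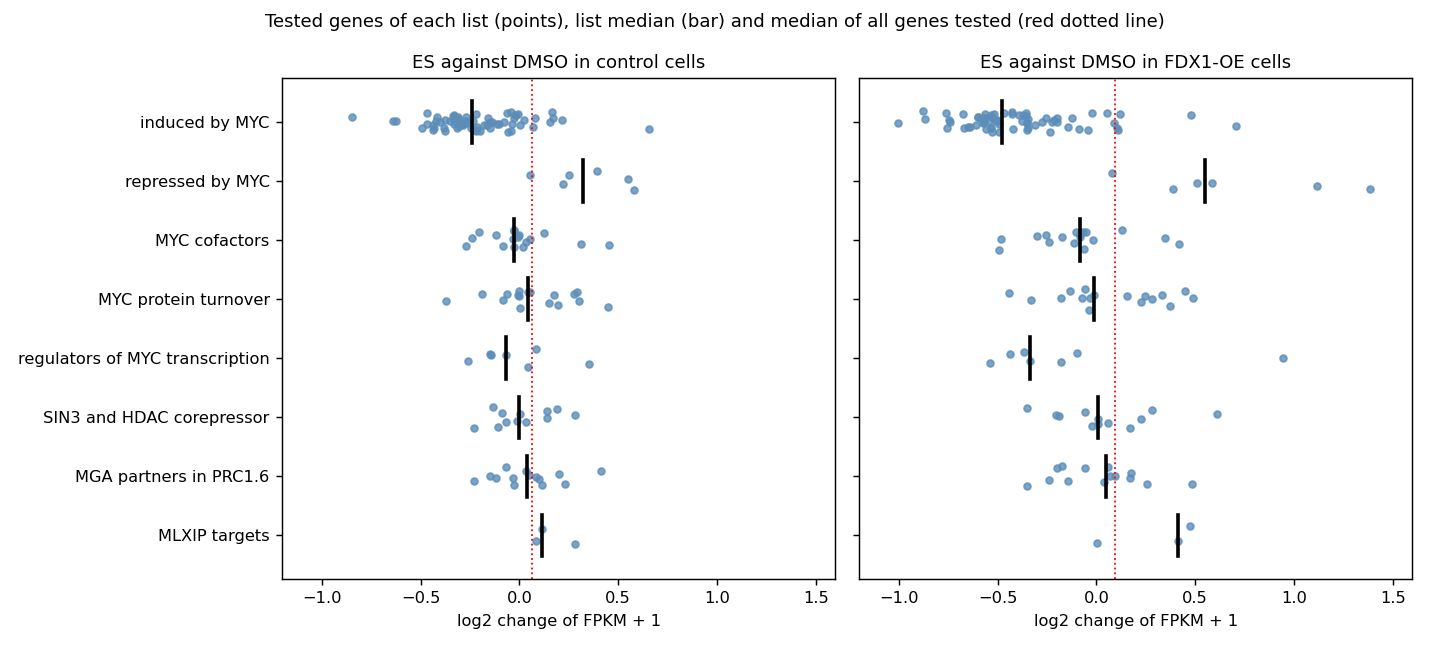
Log2 change of FPKM + 1 with ES for the tested genes of 8 lists around the network (points), with list medians (bars) and the median of all genes tested (dotted line), in control cells (left) and FDX1-OE cells (right). The induced genes have the lowest medians in control cells (−0.24) and in FDX1-OE cells (−0.48), and the other lists apart from the repressed genes spread to both sides of 0 or hold 3 genes.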

How the data were processed

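The tables deposited by the authors hold FPKM for 15597 genes in each of 8 libraries. The headers name no unit, so it was read from the values, which were whole multiples of 1 read's worth. These steps gave whole reads for 100.0% of genes within 0.02 read, and the library totals. Per the submitters' processing notes, HISAT2, HTSeq, R 3.2.0 and the build hg19 were used, and what each did is not given in the sources read. Per the labels' protocols, RNA was extracted with TRIzol and libraries were made with the VAHTS Universal V6 kit.

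Groups followed the labels. Differences in log2(FPKM + 1) were tested with limma 3.58.1 (R 4.3.3), with 4 group means fitted to 8 libraries, empirical Bayes moderation with a mean trend, two-sided tests and Benjamini-Hochberg adjustment over the 9805 genes that reached 1 FPKM in 2 or more libraries. An exact permutation test of 2 against 2 libraries cannot go below p = 0.333. The script was tested on simulated data. A fold on this scale understates changes of low genes. For a gene of 1 kilobase, 3 reads were worth 0.0836 to 0.0897 FPKM, a limit that covers counting error only.

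The members, gene lists (from general knowledge), tests and alternatives were chosen with earlier results of these data known. Besides the members, FDX1 and the genes closest to MYC and MXD3, the text names called genes by a rule per list. It takes at most 5 per direction from the MYC-induced and MYC-repressed lists and at most 3 from other lists. All genes of lists of 4 or fewer are named. Cell type markers, and CDK4 and GADD45A, which were not called with ES, are named outside this rule. Alternatives were a pseudocount of 0.1, no filter, median-ratio scaling, the 4 libraries of a comparison alone, a replicate block and leaving out each library. Voom in limma on the recovered reads was added after seeing the data, in place of a planned count test that needs counts as deposited. Sequences are from RefSeq promoter windows of GRCh38.p14.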

Additional observations from a re-analysis of the deposited data

Results flagged for a closer look

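No member of the network was flagged. Among the genes that the naming rule picked in any comparison, the interaction included, 11 differed in ES response between FDX1-OE and control cells by the interaction in limma. NOLC1, NCL and PLK1 were picked only because the interaction called them. The 11 are therefore a list, and not a share to set beside the 4.3% of all genes called. Other genes of the induced list, which had 13 calls downward and 1 upward, were called as well and are not picked by that rule. The values are the log2 response in FDX1-OE cells minus that in control cells.

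Among genes given as repressed by MYC, the difference was 0.54 for FTH1 (1.12 and 0.58, adjusted p = 0.00818). For CDKN1A it was 0.83 (responses 1.39 and 0.55), a description only, since CDKN1A passed the filter on low genes through ES libraries alone. Among regulators of MYC transcription it was 0.60 for HEXIM1 (0.95 and 0.35, adjusted p = 0.0111) and −0.39 for FUBP1 (−0.54 and −0.15, adjusted p = 0.0477).

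Among genes given as induced by MYC, it was −0.54 for PA2G4 (adjusted p = 0.00893), −0.49 for LDHA (adjusted p = 0.0161), −0.45 for NOLC1, a nucleolar phosphoprotein (adjusted p = 0.0144), −0.44 for NCL, nucleolin (adjusted p = 0.0244), −0.41 for PLK1, a mitotic kinase (adjusted p = 0.0128), and −0.38 for NOP16 (adjusted p = 0.0452). The response of UNG differed upward, by 0.32 (adjusted p = 0.0428).

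Over 13 alternatives, FTH1, HEXIM1 and PA2G4 each lost the call once (highest adjusted p 0.0603, 0.0579 and 0.0643, lowest 0.000986, 0.00742 and 0.000986). PLK1 lost it in 4, LDHA and NOLC1 in 5, NCL in 7, NOP16 in 8, FUBP1 in 9 and UNG in 10, with highest adjusted p-values between 0.0591 and 0.157. No groups of 4 or more libraries were present, so single libraries were not tested as outliers.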

How the results depend on the processing

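Over the alternatives run, member values kept their side of the threshold in 497 cases, passed it newly in 14 and lost it in 19, and no called value changed sign. Members called by ES in control cells (3) came to 0 with no filter and to 0 to 2 with 1 library left out. In FDX1-OE cells (6) leaving out 1 library gave 5 to 6. Between the ES groups (1), the replicate block gave 2, median-ratio scaling 3, voom 3 and leaving out 1 library 0 to 3. For the interaction (0), the block gave 1 (MYC, adjusted p = 0.0321), voom 2 and leaving out 1 library 0 to 1. In DMSO the count stayed 0 in all of these.

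Of all genes, FDX1 overexpression in DMSO called 50, but 2 with no filter, 82 with voom and 15 to 64 without 1 library. With ES it called 2094, and 748 to 1812 without 1 library. The interaction called 422, but 176 with no filter, 222 with a pseudocount of 0.1, 639 with voom and 79 to 630 without 1 library. ES called 3767 in control and 5510 in FDX1-OE cells, and 2526 to 2866 and 4355 to 4499 without 1 library. Median-ratio scaling changed the split of higher and lower calls from 2498 and 1269 to 1682 and 2123 in control cells, from 3632 and 1878 to 2351 and 3105 in FDX1-OE cells, from 1331 and 763 to 961 and 1273 between the ES groups, and from 319 and 103 to 244 and 270 for the interaction. The cause of these shifts was not tested. Deviations of libraries with the same replicate number correlated weakly between groups, at −0.18 to 0.181 over 9805 genes. For MYC the level was lower in replicate 1 than in replicate 2 in every group, and for MXD3 it was higher. Whether the numbers mark a pairing cannot be told from these values. Under the replicate block in limma, the ES change in control cells had adjusted p = 0.00507 for MYC (0.0265 without it) and 0.00419 for MXD3 (0.0171 without it). With the block, ES called 3804 genes in control cells and 5575 in FDX1-OE cells. Leaving out 1 library leaves a lone sample that is assumed to vary like the other groups.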
